A study of Mus musculus with 29 samples.

Results

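Adjacent non-tumor tissue of H2B/p53dIEC mice was compared with non-tumor tissue of H2B/p53flox/flox mice. The comparison holds 8 of the 29 libraries of the series, chosen by genotype and tissue in the labels: 4 adjacent libraries from the animals numbered 1349, 1323, 1322 and 1319, and 4 control libraries from the animals numbered 1315, 1316, 1320 and 1321. Per library values below follow these 2 orders. Strand-specific sequencing of poly(A) RNA gave raw read counts per gene. All mice were of the C57BL/6 strain, and no treatment, age or time is given in the labels for this tissue. The adjacent tissue came from the animals whose tumors were also sequenced (4 tumor libraries, levels given here for context only). Control mice carry the floxed alleles of both genes and are labelled as adjacent normal tissue too, although no tumor of theirs is in the series. From the title of the series, H2B was taken to be Rnaseh2b and p53 to be Trp53, and dIEC as deletion in intestinal epithelial cells. The labels do not name the driver of the deletion. They give each library an animal number but do not say that numbers stand for separate animals, and then p-values measure only the spread between these samples.

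RNase H2 is a nuclear enzyme of 3 different subunits, of which Rnaseh2b encodes one. It cuts DNA beside ribonucleotides that polymerases have built in by mistake, the first step of ribonucleotide excision repair. Loss of the enzyme is known to cause DNA damage, activation of p53 and, in several cell types, sensing of the cell's own nucleic acids with an interferon response. The tissue holds undeleted cells of the gut wall beside the epithelium, so reads of the deleted genes also come from those cells. In bulk tissue, fewer cells of a type and less RNA per cell cannot be told apart.

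Total counts were 22370148 to 34086149 in adjacent libraries and 26853485 to 41504298 in controls, except 401365 in control 1320. Levels are in CPM, a gene's reads scaled to library size. In control 1320, 3 counts equal 7.47 CPM, so a count of 0 in that library allows a level up to 7.47 CPM, against at most 0.134 CPM in the other 7 libraries (counting error only). Where the text says that adjacent libraries lay above all controls and they hold under 7.47 CPM, this holds beyond counting error only against the other 3 controls. Epithelial genes were high in all 8 libraries, with Vil1, which encodes villin of the brush border, at 2321 to 4195 CPM. Markers of the ileum set 1 library apart. Fabp6, the ileal bile acid binding protein, stood at 9520.2, 15.7, 7406 and 7596 CPM in adjacent libraries and at 6381 to 12674 CPM in controls. Slc10a2, the ileal bile acid transporter, stood at 1478, 11.8, 1020.2 and 859 CPM in adjacent libraries and at 1285 to 1840.0 CPM in controls. Adjacent 1323 therefore goes against the other 7 libraries, which all carry ileal levels of both genes, and its 10 most abundant genes took 13.4% of counts against 6.58% to 8.94% elsewhere. By Xist and Y-linked genes the 4 controls and 3 adjacent libraries read as female and adjacent 1349 as male.

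Of 17666 genes tested, 140 were higher in adjacent tissue (0.792%) and 49 were lower (0.277%) at an adjusted p under 0.05 (quasi-likelihood test of edgeR, Benjamini-Hochberg adjustment), 1.07% in either direction. At an unadjusted p under 0.05 there were 1865 higher (10.6%) and 1215 lower (6.88%). Adjacent libraries all lay above all controls in 1452 genes (8.22%) and all below in 1038 (5.88%), and with control 1320 set aside in 10.5% and 9.66% of genes. The numbers of calls rested on single libraries. Without control 1320, 37 genes were higher (0.203%) and 16 lower (0.0877%) of 18247 tested, and 37 and 14 were called with and without it. Without adjacent 1349 the counts were 70 and 14, without adjacent 1323 they were 123 and 24, and without adjacent 1319 they were 78 and 11. Without control 1315 the counts were 24 and 8, and without control 1316 they were 2 and 0. Without control 1321 they were 0 and 0 by edgeR, with 1266 and 809 genes at an unadjusted p under 0.05. Leaving out adjacent 1322 gave 161 and 62. The 189 called genes all kept their direction and an unadjusted p under 0.05 in each of these 8 removals. They had been selected by small p in the same libraries, so this is not a test of the calls. Of 53 calls among the genes named by rule, 23, 41, 46 and 30 held without adjacent 1349, 1323, 1322 and 1319, and 14, 0, 21 and 0 without control 1315, 1316, 1320 and 1321. Without control 1316 their adjusted p was 0.0843 to 0.143 and without control 1321 it was 0.0986 to 0.185, which is not repeated at each gene. Since adjacent and tumor libraries share animals, a fit in limma voom took the animal as a random replicate block, and 25 of the 53 calls held in it. That fit changed the test as well as adding the block. Calls lost under the block, here and below, therefore cannot be assigned to shared animals. Log2 fold changes are adjacent minus control, with the SE after ±, and the median of all tested genes was 0.04.

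Rnaseh2b was lower in adjacent tissue, and Trp53 did not pass the test. Rnaseh2b (ENSMUSG00000021932, GRCm38 chromosome 14, 62292589 to 62372992) stood at 4.05, 4.51, 2.49 and 5.43 CPM in adjacent libraries and at 14.1, 13.4, 24.1 and 12.8 CPM in controls. The groups did not overlap, and the highest control was the shallow 1320. The log2 fold change was -1.86 ± 0.35 (adjusted p = 0.0292). The call was lost without adjacent 1349 (adjusted p = 0.0596), control 1315 (0.0890), control 1316 (0.0861), control 1320 (-1.71, 0.0583) or control 1321 (0.112). Trp53 (ENSMUSG00000059552, chromosome 11, 69580359 to 69591873), which encodes p53, stood at 19.7, 27.8, 13.7 and 24 CPM in adjacent libraries. Controls held 49.6, 39.1, 45.5 and 45.1 CPM, so that every adjacent library lay below every control, and the difference was -1.07 ± 0.28 (adjusted p = 0.0777). The 4 tumors of the same animals held 2.53 to 6.20 CPM of Rnaseh2b and 12.6 to 29.9 CPM of Trp53, overlapping the adjacent tissue. Reads were summed over each whole gene, and those from exons that the deletion leaves in place are part of these values.

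**Figure D1:**
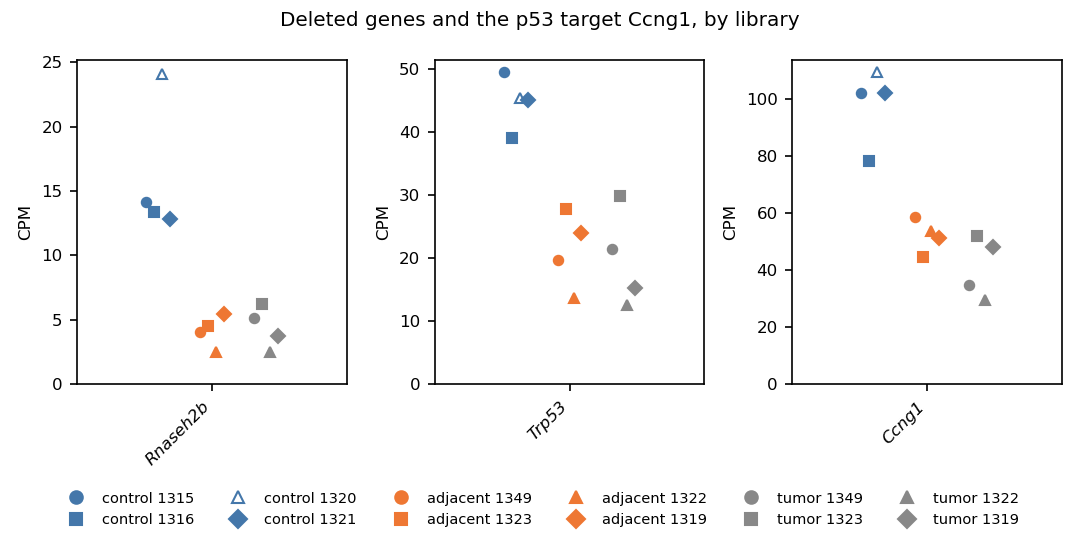
CPM of Rnaseh2b, Trp53 and the p53 target Ccng1 on linear axes from 0, 1 point per library (blue control, orange adjacent, grey tumor, open symbol for the shallow control 1320). Every adjacent library lies below every control for all 3 genes.

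The other genes of the repair pathway did not pass the test. Of 12 members tested, Rnaseh2b was the 1 called, against 0.277% of all genes called lower, and the list median was 0.02. Rnaseh2a, the catalytic subunit, stood at 20.5, 20.1, 22.6 and 16.6 CPM in adjacent tissue and at 19.2, 19.5, 13.4 and 17.2 CPM in controls (0.15 ± 0.20, adjusted p = 0.751). Rnaseh2c, the remaining subunit, stood at 11.2, 8.03, 13.6 and 10.2 CPM against 11.1, 12.8, 13.4 and 12.4 CPM (-0.19 ± 0.27, adjusted p = 0.767). Both groups overlapped for these partners of Rnaseh2b. Top1, the topoisomerase that can also cut at ribonucleotides, gave -0.60 ± 0.24 (adjusted p = 0.229). Rnaseh1, which cleaves longer RNA-DNA hybrids, gave 0.31 ± 0.33 (adjusted p = 0.665) with 0 counts in control 1320, and Pold1, the catalytic subunit of DNA polymerase delta, 0.21 ± 0.26 (adjusted p = 0.725).

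Among p53 targets, 1 of 38 tested members was called, in the lower direction, and the list median was -0.10. Calls in that direction took 0.277% of all genes. Ccng1, a cyclin-like direct target of p53, stood at 58.7, 44.5, 53.8 and 51.3 CPM in adjacent tissue and at 102, 78.4, 109.7 and 102 CPM in controls. It fell by 0.90 ± 0.19 (adjusted p = 0.0464) with no overlap, and no removal of 1 library kept the call (adjusted p from 0.0646 without adjacent 1349 to 0.173 without control 1321). Under the block Ccng1 was not called either (adjusted p = 0.0761). Cdkn1a, the cell cycle inhibitor p21, stood at 743, 566, 357 and 362 CPM against 406, 487, 508 and 399.6 CPM (0.17 ± 0.31, adjusted p = 0.820). Mdm2, the ligase that degrades p53, gave 0.02 ± 0.22 (adjusted p = 0.988). These 2 classical targets were named after their values were seen. Of the 38, 6 had every adjacent library below every control and 2 had every adjacent library above. Over all genes the shares were 5.88% below and 8.22% above. Among the members named by rule, groups were also separate, without passing the test, for Sesn1 (-0.66 ± 0.28, adjusted p = 0.247), Rrm2b (-0.59 ± 0.26, 0.257), Psrc1 (-1.15 ± 0.43, 0.193), Ptp4a3 (1.15 ± 0.39, 0.154) and Plk3 (1.01 ± 0.37, 0.186). Plk2 and Bbc3, the pro-apoptotic Puma, overlapped between groups (0.91 ± 0.33 and -0.77 ± 0.34, adjusted p = 0.185 and 0.264). DNA damage signalling and repair genes had 0 of 26 members called with a median of 0.03, and S phase genes 0 of 26 with 0.12. All 26 mitosis genes had a negative log2 fold change, 0 passed, and the median was -0.36.

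Of 35 tested interferon-stimulated genes, 4 fell in adjacent tissue, 0 rose and 31 did not pass. A negative log2 fold change was found in 31, the median was -1.06, and the summed level overlapped between adjacent tissue (487 to 1139 CPM) and controls (970.4 to 2518 CPM). Of the 35, 15 had every adjacent library below every control and 0 the reverse, against 5.88% and 8.22% of all genes. Calls in the lower direction took 0.277% of all genes. The 4 that fell were Ifih1, Oas3, Ifit1 and Oasl2. Interferon acts on such genes through the factor ISGF3, which binds the interferon-stimulated response element in their promoters. The element's core was searched as GAAA, any 2 bases and GAAA again, on both strands in the 250 bases upstream of RefSeq starts (GRCm38.p6), and 2.98% of 32851 promoters hold it. Of the 25 list members matched by symbol, 14 hold it at the first start listed, and of the 4 that fell Ifit1 and Oas3 do. Their promoters are shown because these 2 genes fell most in the list, with the matches in capitals. Ifit1 is read on the plus strand of chr19:34640639-34640888 and Oas3 on the minus strand of chr5:120777660-120777909.
Ifit1: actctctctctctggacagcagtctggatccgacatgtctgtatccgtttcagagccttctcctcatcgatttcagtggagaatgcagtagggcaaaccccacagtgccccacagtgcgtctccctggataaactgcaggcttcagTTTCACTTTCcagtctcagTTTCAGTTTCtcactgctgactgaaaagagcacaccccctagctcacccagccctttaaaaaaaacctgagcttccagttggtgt
Oas3: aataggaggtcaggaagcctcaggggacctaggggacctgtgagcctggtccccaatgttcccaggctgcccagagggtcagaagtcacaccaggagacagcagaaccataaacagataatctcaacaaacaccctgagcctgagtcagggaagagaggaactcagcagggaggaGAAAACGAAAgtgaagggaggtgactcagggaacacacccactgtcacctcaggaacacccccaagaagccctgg
Ifit1 holds 2 matches and Oas3 holds 1. A match is a description of the letters and not of a site in use.

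Ifit1, which encodes a protein that binds foreign RNA ends, stood at 2.65, 9.39, 7.96 and 9.43 CPM in adjacent libraries. Controls held 23.7, 126, 34.8 and 56.4 CPM, with the highest value in 1316, and the groups did not overlap (-3.08 ± 0.58, adjusted p = 0.0303). Without control 1316 the difference was -2.40 (adjusted p = 0.0949). Oas3, an enzyme that makes short oligoadenylates on double-stranded RNA, stood at 4.58, 10.5, 13.0 and 9.93 CPM against 22.5, 93.2, 77.6 and 37.4 CPM (-2.55 ± 0.48, adjusted p = 0.0302). Its lowest control was above its highest adjacent library. Oasl2, a related antiviral gene, stood at 9.39, 21.1, 37.9 and 40.3 CPM against 61.4, 193, 104 and 98.6 CPM (-2.08 ± 0.45, adjusted p = 0.0490). Adjacent 1349 was the lowest library for all 3 of these genes. Ifit1 lost its call without adjacent 1349, 1323, 1322 or 1319 or control 1320 (adjusted p 0.0526 to 0.0728). Oas3 lost its call without adjacent 1349, 1323 or 1319 or control 1320 (adjusted p 0.0584 to 0.0737). Oasl2 lost its call without adjacent 1349, 1323, 1322 or 1319 or control 1315 or 1320 (adjusted p 0.0534 to 0.106).

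Called genes include 2 sensors of RNA. Ifih1, which encodes the cytosolic RNA sensor MDA5, stood at 48.5, 46.1, 62.5 and 54.3 CPM in adjacent tissue and at 108, 132, 88.3 and 138 CPM in controls (-1.16 ± 0.20, adjusted p = 0.0252). Tlr3, the endosomal receptor for double-stranded RNA, stood at 21.7, 14.8, 26.2 and 26.6 CPM against 50.1, 63.6, 34.8 and 66.9 CPM (-1.32 ± 0.22, adjusted p = 0.0229). Both kept the call without control 1320 (adjusted p = 0.0378 and 0.0375), and neither group pair overlapped. Tlr3 was the 1 of 11 nucleic acid sensing genes called (median -0.14), against 0.277% of all genes called lower. Adar, which edits double-stranded RNA, gave -0.52 ± 0.16 (adjusted p = 0.121) with separate groups. Ifi204, an interferon-inducible DNA sensor, and Tmem173, which encodes STING, did not pass (1.49 ± 0.48 and 0.94 ± 0.34, adjusted p = 0.135 and 0.187). Ifih1 lost its call without adjacent 1349 or 1319 or control 1315 (adjusted p 0.0537 to 0.0653). Tlr3 lost its call without adjacent 1349 or control 1315 (adjusted p 0.0516 to 0.0586).

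Further genes among the largest decreases belong to antiviral families. Ifit1bl1, a paralog of Ifit1, stood at 12.2, 22.3, 29.1 and 16.1 CPM in adjacent tissue and at 30.2, 508, 126 and 240.3 CPM in controls (-3.52 ± 0.66, adjusted p = 0.0303, and -2.74, 0.0861, without control 1316). Reads of near-identical Ifit copies could be split between them by the counting. The controls spread widely here, and control 1315 lay close to the highest adjacent library. Ddx60, an antiviral helicase, stood at 6.29, 22.8, 14.8 and 18.1 CPM against 47.5, 79.9, 42.8 and 63.0 CPM (-1.95 ± 0.33, adjusted p = 0.0225, and 0.0402 without control 1320). Dtx3l, a ubiquitin ligase of the interferon response, stood at 35, 44.1, 69.8 and 63.9 CPM against 98.6, 239, 109.7 and 163 CPM (-1.54 ± 0.29, adjusted p = 0.0292). Adjacent 1349 was again lowest for Ddx60 and Dtx3l. Ifitm1, an interferon-inducible membrane gene, went the opposite way, from 6.34, 11.2, 2.68 and 6.85 CPM in controls to 30.1, 34.6, 35.4 and 103 CPM (2.71 ± 0.50, adjusted p = 0.0292, and 2.10, 0.0403, without adjacent 1319). Ifit1bl1 lost its call without adjacent 1349, 1323 or 1319 or control 1320 (adjusted p 0.0541 to 0.0815). Ddx60 lost its call without control 1315 (adjusted p = 0.0503). Dtx3l lost its call without adjacent 1349, 1323 or 1319 or control 1320 (adjusted p 0.0512 to 0.0609). Ifitm1 lost its call without control 1315 or 1320 (adjusted p 0.0650 to 0.104). Ifit1bl1 and Ifitm1 were not called under the block (adjusted p = 0.0943 and 0.0679).

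The interferon count depended on single libraries. In the list 4 members were called without adjacent 1322, 2 without control 1315, 1 without adjacent 1323 or control 1320, and 0 without adjacent 1349, adjacent 1319, control 1316 or control 1321. Under the block 1 member was called, and Ifit1, Oas3 and Oasl2 were not (adjusted p = 0.0683, 0.0761 and 0.0676). The tumors held 8.18 to 29.7 CPM of Ifit1 and 12.7 to 23.6 CPM of Ifih1. MHC class I genes had 0 of 13 members called and a median of -0.55, and the groups overlapped for B2m, the light chain of MHC class I, at 573, 982, 901 and 1019.7 CPM against 1002, 3129, 1239 and 1546 CPM (-0.99 ± 0.35, adjusted p = 0.164). Psmb10, Erap1 and H2-T23 gave -0.78 ± 0.31, -0.47 ± 0.19 and -0.62 ± 0.30 (adjusted p = 0.224, 0.230 and 0.316). MHC class II genes had 0 of 8 called (median -0.67). Markers of T cells and intraepithelial lymphocytes had 19 of 22 members negative, 0 called and a median of -0.62. Their summed level was 30.8 to 213 CPM in adjacent tissue and 45 to 472 CPM in controls. Their part in the interferon result was not tested.

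**Figure D2:**
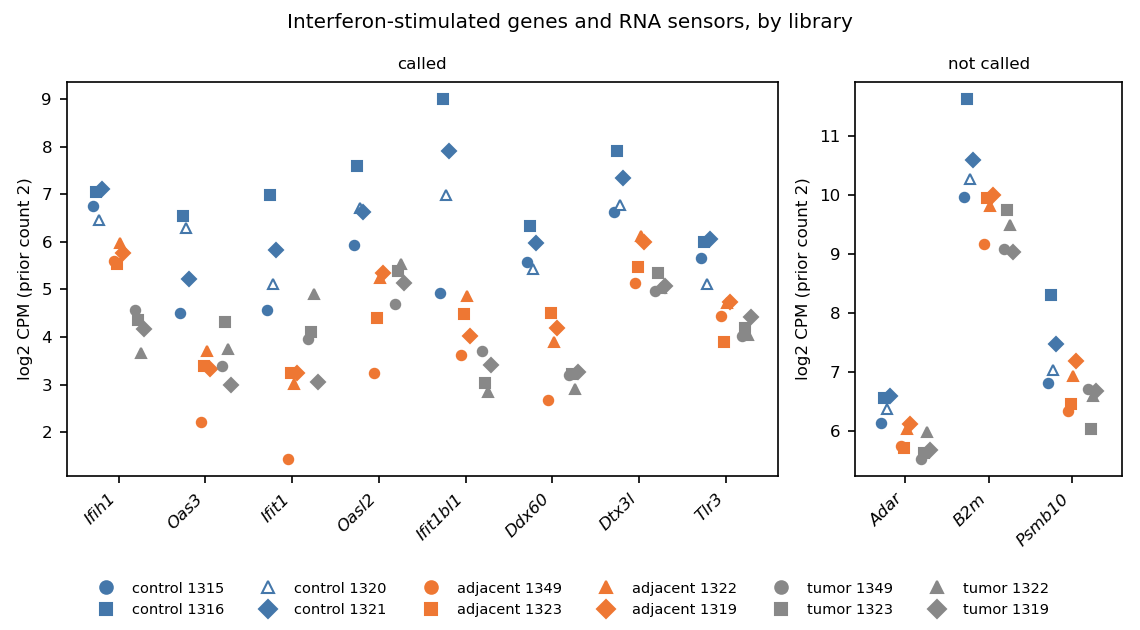
Log2 CPM (prior count 2) of 8 called antiviral or RNA sensing genes and of 3 genes not called, 1 point per library in the colours of control, adjacent and tumor tissue. The adjacent points lie below the control points for all 8 called genes, while B2m and Psmb10 overlap.

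Genes of the circadian clock differed between the groups in both directions. The clock is a loop in which ARNTL and CLOCK bind E-boxes and switch on Per, Cry and the factors Dbp, Tef and Hlf, while the Per and Cry products repress them. Of 18 members tested, 5 rose, 1 fell, and the median was 0.84. Calls took 0.792% of all genes in the higher direction and 0.277% in the lower. Every adjacent library lay above every control in 8 of the 18 and below in 3, against 8.22% and 5.88% of all genes. The E-box was searched as CACGTG and the D-box, at which Dbp, Tef and Hlf act, as TTATGTAA, on both strands of the 250 upstream bases, where 6.02% and 0.819% of all promoters hold them. Of 15 matched members, 5 hold the E-box and 1 the D-box, among them Ciart and Tef of the 5 matched called members for the E-box and Per3 for the D-box. Promoters of Per3 and Ciart are shown because these 2 genes rose most in the list, both read on the minus strand, Per3 from chr4:151044666-151044915 with D-box matches in capitals and Ciart from chr3:95882229-95882478 with E-box matches in capitals.
Per3: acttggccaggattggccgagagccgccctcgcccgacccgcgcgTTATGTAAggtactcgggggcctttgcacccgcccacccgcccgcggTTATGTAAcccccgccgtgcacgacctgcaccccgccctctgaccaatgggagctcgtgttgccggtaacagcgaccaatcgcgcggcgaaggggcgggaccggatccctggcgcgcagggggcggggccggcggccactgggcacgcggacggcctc
Ciart: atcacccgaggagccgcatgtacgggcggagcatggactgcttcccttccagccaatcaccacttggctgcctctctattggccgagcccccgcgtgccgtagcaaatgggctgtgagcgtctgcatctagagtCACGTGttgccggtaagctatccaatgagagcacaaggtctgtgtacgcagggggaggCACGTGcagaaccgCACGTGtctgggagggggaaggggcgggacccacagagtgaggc
Per3 holds 2 D-box matches and Ciart holds 3 E-box matches.

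Tef, a transcription factor at clock output genes, stood at 118, 272, 122 and 145 CPM in adjacent tissue and at 56.4, 29.8, 16.1 and 24.2 CPM in controls (2.28 ± 0.36, adjusted p = 0.0178). Per3, a period gene, stood at 22.2, 47.5, 27.2 and 33.1 CPM against 9.03, 2.79, 0 and 2.81 CPM (2.81 ± 0.45, adjusted p = 0.0178, and 3.63, 0.00810, without control 1315). Both kept the call without control 1320 (adjusted p = 0.0469 and 0.0378), and the highest adjacent value was in 1323. Cry2, a repressor, stood at 63.2, 128, 60.5 and 81.7 CPM against 35.5, 29.5, 18.7 and 22.1 CPM (1.59 ± 0.27, adjusted p = 0.0226). Per2, another period gene, stood at 47.4, 47.4, 65.3 and 54.6 CPM against 22.8, 7.26, 13.4 and 22.4 CPM (1.66 ± 0.32, adjusted p = 0.0324). For these 4 genes no library of one group reached the other. Ciart, a repressor of the loop, stood at 10.4, 29.2, 3.04 and 2.94 CPM against 0.946, 0.429, 0 and 0.438 CPM (4.22 ± 0.82, adjusted p = 0.0340, and 0.0739 without control 1320). Cry2 lost its call without control 1320 (adjusted p = 0.0541). Per2 lost its call without adjacent 1349, 1322 or 1319 or control 1315 or 1320 (adjusted p 0.0548 to 0.0785).

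Arntl, the activator whose RNA peaks opposite to the Per genes, was lower in adjacent tissue. It stood at 39.9, 10.5, 32.1 and 26.6 CPM against 59.4, 85.9, 77.6 and 94.5 CPM (-1.54 ± 0.33, adjusted p = 0.0484), with the lowest value in adjacent 1323. Its partners Clock and Npas2 also had separate groups and did not pass (-0.48 ± 0.19 and -0.70 ± 0.29, adjusted p = 0.220 and 0.232). Per1, Dbp and Hlf lay above all controls without passing (1.72 ± 0.42, 2.73 ± 0.67 and 1.83 ± 0.43, adjusted p = 0.0679, 0.0693 and 0.0602). Nr1d1, a repressor of Arntl, overlapped at 81.9, 207, 54.9 and 50.8 CPM against 104, 90.5, 72.3 and 44.7 CPM (0.33 ± 0.53, adjusted p = 0.792). The labels give no hour of tissue collection, so genotype and hour cannot be told apart here. Clock genes called higher numbered 5 without adjacent 1323 or adjacent 1322, 4 without adjacent 1319, 3 without adjacent 1349 or control 1315, 2 without control 1320 and 0 without control 1316 or control 1321. Arntl kept its call only without adjacent 1323 among these 8 removals (adjusted p = 0.0933 without control 1320). Under the block 4 clock genes were called higher, and Arntl was not called lower (adjusted p = 0.0637). With both control 1320 and the tumors left out 0 clock genes were called in either direction. Tumors of the same animals held 47.5 to 77.6 CPM of Tef and 9.55 to 15.1 CPM of Arntl. Fkbp5, a glucocorticoid-induced chaperone named after its values were seen, stood at 456, 499, 331 and 429 CPM against 147, 75.5, 85.6 and 129 CPM (1.96 ± 0.34, adjusted p = 0.0238, and 0.0677 without control 1320).

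Of 18 genes of low oxygen and glycolysis 3 rose in adjacent tissue, 0 fell and 15 did not pass. A positive log2 fold change was found in 16 (median 0.67), and the summed level overlapped between adjacent tissue (4006 to 7233 CPM) and controls (3400.3 to 4343 CPM). Every adjacent library lay above every control in 6 of the 18, against 8.22% of all genes. Calls in the higher direction took 0.792% of all genes. Low oxygen stabilises HIF factors, which bind ACGTG, a string that is also part of the E-box CACGTG. The string was found in 16.6% of all promoters and in 9 of 16 matched members, among them all 3 that rose. The promoters of Pgk1 (plus strand, chrX:106186850-106187099) and Bnip3 (minus strand, chr7:138909507-138909756) are shown as those of called members with 2 matches each, in capitals.
Pgk1: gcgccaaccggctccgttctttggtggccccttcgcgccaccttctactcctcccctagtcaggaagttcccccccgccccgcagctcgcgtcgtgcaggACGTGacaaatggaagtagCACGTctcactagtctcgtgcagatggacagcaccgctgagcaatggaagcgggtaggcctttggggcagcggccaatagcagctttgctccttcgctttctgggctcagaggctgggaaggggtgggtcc
Bnip3: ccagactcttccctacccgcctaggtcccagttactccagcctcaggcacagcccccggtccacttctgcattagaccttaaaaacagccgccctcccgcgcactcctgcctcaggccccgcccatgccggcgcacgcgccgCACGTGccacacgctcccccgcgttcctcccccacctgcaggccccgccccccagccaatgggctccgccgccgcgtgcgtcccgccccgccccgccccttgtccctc
The 2 matches in Bnip3 overlap in opposite directions and form 1 E-box.

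Bnip3, a mitochondrial protein of mitophagy, stood at 79.3, 109.5, 55.6 and 58.7 CPM in adjacent tissue and at 19.8, 23.4, 21.4 and 16.9 CPM in controls (1.91 ± 0.28, adjusted p = 0.0146, and 0.0378 without control 1320). Pgk1, a glycolytic enzyme, stood at 310.5, 366, 227 and 143 CPM against 89.1, 105, 93.7 and 85.6 CPM (1.49 ± 0.26, adjusted p = 0.0238, and 0.0609 without control 1320). Controls were tight for both genes, and every adjacent library lay above them. Egln3, a hydroxylase that marks HIF for degradation, stood at 243, 135, 202 and 117 CPM against 55.1, 43.3, 74.9 and 49.4 CPM (1.70 ± 0.32, adjusted p = 0.0303). Ndrg1, a stress gene, was 1871 CPM in adjacent 1323 and 323, 229.9 and 325 CPM in the other 3, against 91.0 to 185 CPM in controls (2.32 ± 0.61, adjusted p = 0.0852). Vegfa, Slc2a1 and Car9 did not pass. Outside the list and named after their values were seen, Pfkl, a phosphofructokinase, stood at 193, 128, 160.2 and 126 CPM against 44.6, 44.1, 40.1 and 40.5 CPM (1.84 ± 0.25, adjusted p = 0.0146, and 0.0375 without control 1320). Slc16a3, a lactate exporter, and Hif3a, a HIF subunit, gave 2.33 ± 0.34 and 3.14 ± 0.47 (adjusted p = 0.0146 each, and 0.0378 and 0.0375 without control 1320). The list held 3 calls without adjacent 1323 or adjacent 1319, 2 without adjacent 1322, 1 without adjacent 1349 or control 1320, and 0 without control 1315, 1316 or 1321, and 3 under the block. Bnip3 lost its call without control 1315 (adjusted p = 0.0504). Pgk1 lost its call without adjacent 1349 or control 1315 (adjusted p 0.0516 to 0.0867). Egln3 lost its call without adjacent 1349 or 1322 or control 1315 or 1320 (adjusted p 0.0506 to 0.103).

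**Figure D3:**
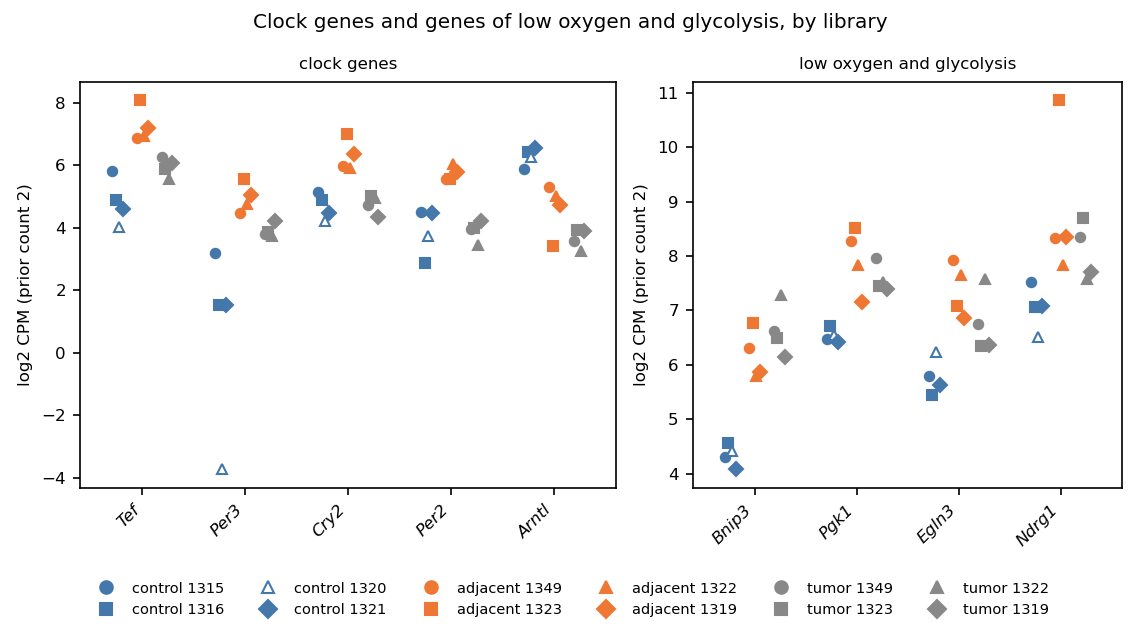
Log2 CPM (prior count 2) of 5 clock genes and 4 genes of low oxygen and glycolysis, 1 point per library in the colours of control, adjacent and tumor tissue. Adjacent points lie above control points except for Arntl, where they lie below.

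Red blood cell genes were higher in adjacent tissue. All 7 members tested rose, with a list median of 5.19, and the summed level was 96.0 to 720.2 CPM in adjacent tissue and 6.96 to 12.2 CPM in controls. Among all tested genes 0.792% were called higher. Hbb-bs, a beta globin, stood at 101, 68.9, 53.4 and 371 CPM against 7.39, 4.12, 0 and 5.16 CPM (4.81 ± 0.67, adjusted p = 0.0146). Hba-a1, an alpha globin, stood at 32.0, 19.6, 15.6 and 143 CPM against 1.69, 1.03, 8.03 and 1.78 CPM (4.99 ± 0.79, adjusted p = 0.0178). Adjacent 1319 was the highest library for both, and without it the differences were 3.81 and 3.76 (adjusted p = 0.00270 and 0.00278). Hbb-bt and Hba-a2 gave 5.19 ± 0.73 and 4.72 ± 0.74 (adjusted p = 0.0146 and 0.0178), and 4.09 and 3.46 without adjacent 1319 (adjusted p = 0.00103 each). Reads of the near-identical globin copies could be split between them by the counting. Alas2, the heme synthesis enzyme of red cell precursors, stood at 8.41, 5.19, 4.40 and 32.6 CPM against 0.281, 0.258, 0 and 0.344 CPM (5.41 ± 0.77, adjusted p = 0.0146, and 4.33, 0.00270, without adjacent 1319). The 4 tumors held 45.1 to 61.8 CPM of Hba-a1, inside the adjacent range. The list held 7 calls without any 1 of the adjacent libraries 1323, 1322 and 1319, 5 without adjacent 1349 or control 1320, 2 without control 1315 and 0 without control 1316 or 1321. With both control 1320 and the tumors left out it held 0. Under the block 1 of the 7 was called, and Hba-a1, Hba-a2, Hbb-bt and Alas2 were not (adjusted p = 0.0641, 0.0689, 0.0529 and 0.0532). Hba-a1 lost its call without control 1315 (adjusted p = 0.0742). Hba-a2 lost its call without control 1315 (adjusted p = 0.0661). Alas2 lost its call without control 1315 (adjusted p = 0.0513).

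Several neutrophil genes were higher in adjacent tissue and near the counting limit in controls. Of 11 tested markers of neutrophils and eosinophils 5 rose, 0 fell and 6 did not pass (median 5.02), and the summed level was 54.5 to 205 CPM in adjacent tissue and 2.68 to 15.8 CPM in controls. Among all tested genes 0.792% were called higher. S100a9, a calprotectin subunit, stood at 23.4, 19.9, 51.4 and 82.5 CPM against 0.435, 0.258, 0 and 0.156 CPM (7.24 ± 0.95, adjusted p = 0.0146). S100a8, its partner, stood at 13.8, 13.3, 30.8 and 63.4 CPM against 0.179, 0.215, 0 and 0.281 CPM (7.06 ± 1.02, adjusted p = 0.0146, and 6.41, 0.0225, without adjacent 1319). Both were highest in adjacent 1319 and kept the call without control 1320 (adjusted p = 0.0375 each). Ngp, a granule protein of immature neutrophils, had 941 counts in the adjacent libraries and 3 in the controls, a ratio of 308 (95% counting interval 105 to 1498), and its call had an adjusted p of 0.0178. Camp, the granule peptide cathelicidin, had 268 and 2 counts, a ratio of 132 (36.1 to 1093, adjusted p = 0.0208). The Ngp call was lost without control 1315 (adjusted p = 0.0935) and the Camp call too (0.0867). Retnlg, another granule gene, stood at 4.54, 6.14, 6.64 and 19.0 CPM against 0, 0.129, 0 and 0.0313 CPM (7.56 ± 1.25, adjusted p = 0.0225, and 0.0491 without control 1320). Siglecf, a marker of eosinophils, gave no call. Tumors were higher still, with S100a9 at 97.5 to 818 CPM (tumor minus adjacent 2.87, adjusted p = 0.00391). The list held 6 calls without adjacent 1323, 5 without adjacent 1349, 1322 or 1319 or control 1320, 1 without control 1315 and 0 without control 1316 or 1321. Under the block 0 were called by limma voom, with S100a9, S100a8, Ngp and Camp at adjusted p = 0.0679, 0.0962, 0.157 and 0.112. S100a8 lost its call without control 1315 (adjusted p = 0.0610). Macrophage and myeloid markers had 0 of 15 called (median 0.68).

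Of 14 endothelial genes 4 rose in adjacent tissue, 0 fell and 10 did not pass, and 9 lay above all controls (median 0.94). Over all genes 0.792% were called higher and 8.22% lay above all controls. Vwf, which encodes von Willebrand factor, stood at 75.7, 59.0, 45 and 52.3 CPM against 16.9, 9.92, 2.68 and 16.6 CPM (2.11 ± 0.37, adjusted p = 0.0282). Plvap, a protein of fenestrated capillaries, stood at 89.6, 62.5, 68.5 and 103 CPM against 34.7, 24.1, 32.1 and 40.1 CPM (1.30 ± 0.25, adjusted p = 0.0325). Esam and Egfl7, genes of vessel junctions and vessel growth, rose by 1.13 ± 0.21 and 1.27 ± 0.25 (adjusted p = 0.0285 and 0.0335). Groups were separate for all 4. Esam kept its call without control 1320 (adjusted p = 0.0375), and Vwf did not (0.0512). The summed level of the 14 genes was 313 to 458 CPM in adjacent tissue and 123 to 208 CPM in controls. The part of vessels in the red blood cell and neutrophil results was not tested. Lymphatic Lyve1, Prox1 and Flt4 overlapped between groups. The list held 4 calls without adjacent 1322, 3 without adjacent 1323, 1 without adjacent 1319 or control 1320, and 0 without adjacent 1349, control 1315, 1316 or 1321. Under the block 2 were called, and Plvap and Egfl7 were not (adjusted p = 0.0592 and 0.0641). Vwf lost its call without adjacent 1349 or control 1315 (adjusted p 0.0535 to 0.0670). Esam lost its call without adjacent 1349 or 1319 or control 1315 (adjusted p 0.0569 to 0.0742). Plvap lost its call without adjacent 1349 or 1319 or control 1315 or 1320 (adjusted p 0.0658 to 0.0998). Egfl7 lost its call without adjacent 1349, 1323 or 1319 or control 1315 or 1320 (adjusted p 0.0516 to 0.119).

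**Figure D4:**
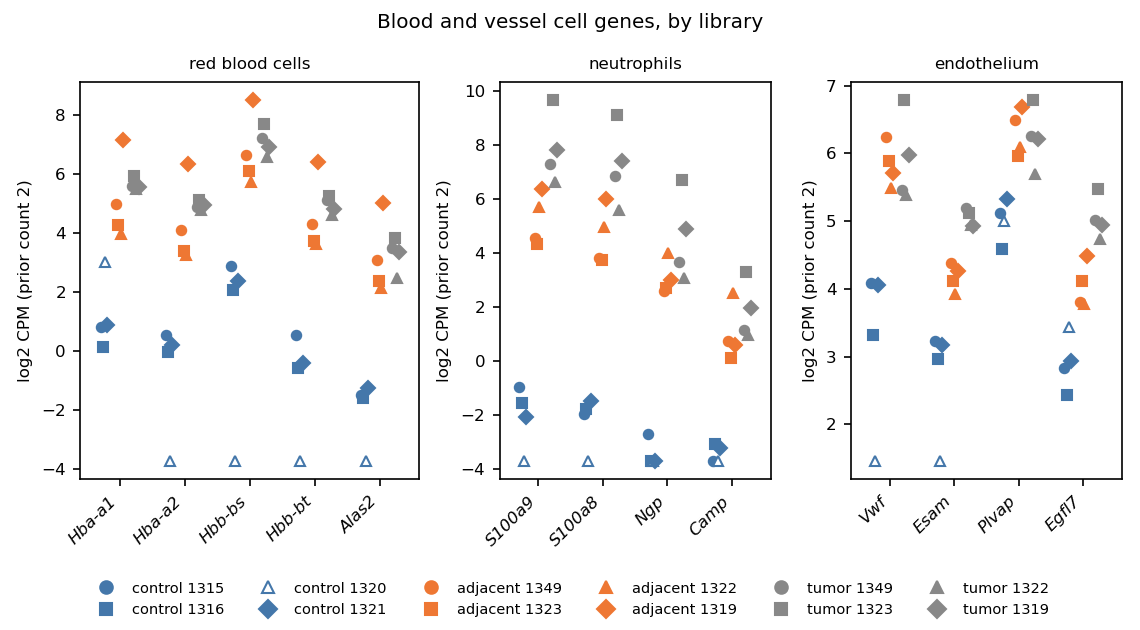
Log2 CPM (prior count 2) of red blood cell, neutrophil and endothelial genes, 1 point per library in the colours of control, adjacent and tumor tissue. Adjacent points lie above the plotted control points for each gene, and points at the floor are counts of 0, which in control 1320 allow up to 7.47 CPM.

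Of 20 antimicrobial and epithelial stress genes 3 rose (0.792% of all genes did), 0 fell and 11 had a negative log2 fold change (median -0.40). The 3 were S100a8 and S100a9, the same calls as among the neutrophil markers, and Lcn2, which neutrophils also make, and they stand beside Ngp and Camp above. Lcn2, an iron-withholding lipocalin of both epithelium and neutrophils, stood at 16.4, 33.2, 37.8 and 150.4 CPM against 3.33, 2.23, 2.68 and 1.97 CPM (4.56 ± 0.84, adjusted p = 0.0292, and 3.52, 0.0417, without adjacent 1319). All adjacent libraries were above all controls, as in 8.22% of all genes, and tumors held 398 to 2475 CPM. Saa3, an acute phase protein, stood at 7.69, 61.8, 517 and 677 CPM against 1.76, 11.0, 5.35 and 3.09 CPM (5.91 ± 1.37, adjusted p = 0.0595), where adjacent 1349 lay below control 1316. Serpina3n, an acute phase protease inhibitor, stood at 30.9, 137, 39.0 and 139 CPM against 6.24, 6.74, 8.03 and 4.06 CPM (3.89 ± 0.70, adjusted p = 0.0285). Lrg1, an acute phase glycoprotein named after its values were seen, had the smallest adjusted p of all genes, with 23.1, 16.9, 19.4 and 19.6 CPM against 3.56, 1.59, 2.68 and 2.22 CPM (2.99 ± 0.33, adjusted p = 0.0116, and 0.0360 without control 1320). Its adjacent libraries were close to each other. Calls in the antimicrobial list numbered 4 without adjacent 1349, 2 without control 1320, 1 without control 1315, 0 without control 1316 or 1321, and 0 under the block in limma voom. Lcn2 lost its call without control 1315 or 1320 (adjusted p 0.0669 to 0.0948). Serpina3n lost its call without adjacent 1319 or control 1315 or 1320 (adjusted p 0.0608 to 0.0948). Neither was called under the block (adjusted p = 0.115 and 0.0740). Cytokines and chemokines had 0 of 19 called, all with a positive log2 fold change (median 0.84). Ccl7 and Ccl2, attractants of monocytes, lay above controls 1315, 1316 and 1321, and held 0 counts in control 1320, which allows up to 7.47 CPM there (3.79 ± 0.84 and 3.19 ± 0.95, adjusted p = 0.0536 and 0.113). Il1a and Cxcl1, an interleukin and a neutrophil attractant, did not pass (1.70 ± 0.61 and 1.80 ± 0.73, adjusted p = 0.177 and 0.232).

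Genes of the fetal-like regenerative state, which the epithelium is known to take on after injury, had 3 of 18 members higher and 0 lower (median 1.05). The share called higher over all genes was 0.792%. S100a6, a calcium-binding protein, stood at 622, 342, 498 and 400.4 CPM against 203, 159, 201 and 174 CPM (1.34 ± 0.24, adjusted p = 0.0282). Il33, an alarmin cytokine, stood at 8.45, 19.7, 10.3 and 6.80 CPM against 4.63, 2.88, 2.68 and 3.31 CPM (1.65 ± 0.33, adjusted p = 0.0368). Groups were separate for both, and neither kept the call without control 1320 (adjusted p = 0.0632 and 0.0781). Clu, which marks revival stem cells, stood at 54.4, 1482, 102 and 673 CPM against 30.3, 46.7, 42.8 and 36.0 CPM (3.90 ± 0.87, adjusted p = 0.0543), and at 2.84 (0.104) without adjacent 1323. Calls in the list numbered 4 without adjacent 1322, 3 without adjacent 1323, 2 without adjacent 1349 or 1319, and 0 without any 1 control. Under the block 1 was called, and Il33 was not (adjusted p = 0.102). S100a6 lost its call without adjacent 1349 or control 1315 (adjusted p 0.0542 to 0.0790). Il33 lost its call without adjacent 1349 or control 1315 (adjusted p 0.0523 to 0.0890). Stem cell genes (0 of 20 called, median 0.03) and Wnt targets (0 of 23, median 0.12) held no call.

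Single genes of metal, lipid and foreign compound handling were among the largest increases. Mt1, a metallothionein that binds zinc and copper, stood at 1723, 3156, 907 and 1304 CPM against 297, 78.4, 109.7 and 93.6 CPM (3.6 ± 0.55, adjusted p = 0.0158, 0.0512 without control 1320, and 4.25, 0.0150, without control 1315). Mt2, the paired metallothionein, named after its values were seen, stood at 376, 1278, 90.3 and 159.8 CPM against 203, 34.1, 42.8 and 47.6 CPM, with overlap (2.50 ± 0.87, adjusted p = 0.169). Por, which passes electrons to all microsomal cytochromes P450, stood at 591, 1179, 316 and 423 CPM against 109, 94.1, 126 and 82.1 CPM (2.63 ± 0.36, adjusted p = 0.0146, and 0.0375 without control 1320). For Mt1 and Por no library of one group reached the other. Por was the 1 of 15 xenobiotic genes called (median 1.12), against 0.792% of all genes called higher. The cytochromes Cyp2b10, Cyp2c66 and Cyp3a11 were highest in adjacent 1323 (547, 43.6 and 5657 CPM) and did not pass (adjusted p = 0.0852, 0.137 and 0.266). Abca1, the cholesterol exporter, stood at 41.9, 215, 39.0 and 94.3 CPM against 14.3, 17.0, 21.4 and 11.5 CPM (2.71 ± 0.53, adjusted p = 0.0345, and 1.97, 0.0352, without adjacent 1323). Acox2, a peroxisomal oxidase of bile acid precursors, stood at 50.7, 86.3, 45.6 and 30.6 CPM against 14.5, 6.57, 18.7 and 7.06 CPM (2.39 ± 0.43, adjusted p = 0.0285). Flvcr2, a membrane transporter, stood at 53.8, 52.2, 24.3 and 61.6 CPM against 6.32, 5.02, 13.4 and 2.84 CPM (3.19 ± 0.58, adjusted p = 0.0290), and tumors held 1.27 to 8.02 CPM. Arl14, a small GTPase, stood at 29.3, 75.6, 11.8 and 13.8 CPM against 3.63, 1.76, 10.7 and 2.66 CPM (3.45 ± 0.66, adjusted p = 0.0320, and 2.61, 0.0321, without adjacent 1323). Its lowest adjacent library was close to the shallow control 1320. Abca1 lost its call without adjacent 1319 or control 1315 or 1320 (adjusted p 0.0737 to 0.123). Acox2 lost its call without adjacent 1349 or control 1315 or 1320 (adjusted p 0.0512 to 0.0624). Flvcr2 lost its call without adjacent 1349 or 1319 or control 1315 or 1320 (adjusted p 0.0512 to 0.0935). Arl14 lost its call without adjacent 1349 or control 1315 or 1320 (adjusted p 0.0512 to 0.110). Abca1 and Arl14 were not called under the block (adjusted p = 0.0679 and 0.0765).

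NRF2 targets and glutathione transferases had 1 of 19 members higher and 0 lower, with 17 positive and a median of 0.87. The share called higher over all genes was 0.792%. The 1 member called was Abcc4, an exporter of conjugates, at 16.1, 15.4, 9.68 and 12.4 CPM against 6.52, 7.17, 5.35 and 6.38 CPM (1.02 ± 0.19, adjusted p = 0.0285, and 0.0541 without control 1320). Gsta3, Gstm1 and Hmox1 gave 1.56 ± 0.39, 1.22 ± 0.31 and 2.33 ± 0.63 (adjusted p = 0.0725, 0.0725 and 0.0868). Among fatty acid and PPAR genes 1 of 20 rose (median 0.16), Cyp4a10, a fatty acid hydroxylase, at 1.93, 3.57, 0.553 and 2.80 CPM against 0.0767, 0.0859, 0 and 0 CPM (5.26 ± 1.11, adjusted p = 0.0470, and 0.0861 without control 1320). Pdk4, Angptl4 and Srebf1 did not pass (2.99 ± 0.75, 1.17 ± 0.35 and 1.39 ± 0.45, adjusted p = 0.0725, 0.107 and 0.139). Cholesterol synthesis genes had 0 of 21 called (median -0.43). Abcc4 lost its call without adjacent 1349 or control 1315 (adjusted p 0.0542 to 0.0948). Cyp4a10 lost its call without adjacent 1349, 1323 or 1319 or control 1315 (adjusted p 0.0678 to 0.140). Under the block neither was called (adjusted p = 0.0683 and 0.127).

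Markers of gut region moved mainly with adjacent 1323 and less so with adjacent 1319. The 13 proximal genes had 0 called and a median of 1.71. Their summed level was 2941 CPM in adjacent 1323, 357 CPM in adjacent 1319 and 182 CPM in the lowest adjacent library, against 173 to 214 CPM in controls. Lct, which encodes lactase, stood at 0.539, 715, 0.646 and 42.3 CPM against 0.435, 0.816, 5.35 and 1.0 CPM (7.89 ± 2.63, adjusted p = 0.153). Gata4, a factor of the proximal gut, stood at 1.39, 118, 0.799 and 14.9 CPM against 0.793, 1.63, 0 and 1.97 CPM (4.55 ± 1.39, adjusted p = 0.120). Adjacent 1323, and less so adjacent 1319, carried these genes, and the groups overlapped. Fabp1, a fatty acid carrier, and Apoc3, an apolipoprotein, lay above all controls and did not pass (5.53 ± 1.53 and 2.98 ± 1.04, adjusted p = 0.0931 and 0.169). Onecut2 gave 3.25 ± 1.24 (adjusted p = 0.206). Apoa4, an apolipoprotein of fat absorption, was the 1 of 31 enterocyte genes called (list median 0.42), at 1171, 42139.8, 339.6 and 8743 CPM against 42.1, 94.2, 112 and 28.3 CPM (7.62 ± 1.64, adjusted p = 0.0499). Calls in the higher direction took 0.792% of all genes. Without adjacent 1323 Apoa4 was at 5.68 (adjusted p = 0.0764). Apoa4 lost its call without adjacent 1349 or 1319 or control 1315 or 1320 (adjusted p 0.0542 to 0.150). Under the block it was not called (adjusted p = 0.0680). With a covariate for region, the score of proximal minus distal genes, 37 of the 53 named calls held. Interferon-stimulated genes then had 2 calls, enterocyte genes 0, endothelial genes 5, neutrophil genes 6, red blood cell genes 7, and clock genes 4 higher and 0 lower (edgeR). The enterocyte list shares members with the region lists, such as Fabp1, Lct and Cubn. Its count in this fit is therefore not independent of the covariate. Apoa4 was at 4.47 (adjusted p = 0.134), Abca1 at 2.06 (0.109) and Rnaseh2b at -1.77 (0.0697) in that fit. Over the 8 libraries alone the same covariate left 1 call among red blood cell genes and 2 higher among clock genes.

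Smooth muscle genes had all 14 members below 0 in log2 fold change (median -0.61), 1 of them called and 6 with separate groups. Over all genes 0.277% were called lower and 5.88% had every adjacent library below every control. Hspb6, a small heat shock protein of muscle, stood at 16.9, 15.3, 18.4 and 11.8 CPM against 31.9, 56.0, 21.4 and 31.7 CPM (-1.24 ± 0.25, adjusted p = 0.0402, and 0.0491 without control 1320). Hspb6 lost its call without adjacent 1349, 1323 or 1319 or control 1315 (adjusted p 0.0678 to 0.0963). Mylk and Acta2, genes of the contractile apparatus, were separate and did not pass (-1.15 ± 0.34 and -0.68 ± 0.22, adjusted p = 0.110 and 0.139), and Smtn gave -0.44 ± 0.17 (adjusted p = 0.199). The summed level was 4288 to 6544 CPM in adjacent tissue and 7033 to 10836 CPM in controls. Its part in other results was not tested. Mcpt1, a mucosal mast cell protease, had 1 count in adjacent tissue and 159 in controls, a ratio of 162 (28.6 to 6428, adjusted p = 0.0292), most of them in control 1316 at 4.81 CPM. Control 1320 held 0, so the groups overlapped, and the difference was -5.51 without control 1316 and -8.65 without adjacent 1322. The call held in 1 of 8 removals, that of control 1315. Mcpt1 lost its call without adjacent 1349, 1323, 1322 or 1319 or control 1320 (adjusted p 0.0541 to 0.0746). Under the block it was not called (adjusted p = 0.115). Mcpt2, its near copy, had 1 against 62 counts (ratio 63.1, 10.9 to 2531, adjusted p = 0.0579). Reads of these 2 copies could be split between them. Hdc, which makes histamine, gave 2.67 ± 0.73 (adjusted p = 0.0919), and Etv1, of interstitial cells of Cajal, -0.70 ± 0.34 (adjusted p = 0.317).

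The remaining large decreases came from several functions. Dio1, the deiodinase that activates thyroid hormone, stood at 3.78, 2.52, 6.39 and 3.77 CPM in adjacent tissue and at 60.7, 43.2, 48.2 and 95.9 CPM in controls (-3.93 ± 0.65, adjusted p = 0.0225, and 0.0469 without control 1320). Hr, a corepressor that binds the thyroid hormone receptor, stood at 15, 5.04, 20.5 and 13.4 CPM against 62.2, 45.2, 48.2 and 60.0 CPM (-2.01 ± 0.36, adjusted p = 0.0282). Both genes had separate groups. Kitl, the ligand of the receptor Kit, stood at 55.1, 44.8, 38.9 and 43.6 CPM against 99.9, 97.6, 109.7 and 147 CPM (-1.32 ± 0.20, adjusted p = 0.0158, and 0.0381 without control 1320). Its adjacent values were close together, and tumors held 53.6 to 85.2 CPM. Optc, a small proteoglycan, stood at 5.75, 3.51, 7.32 and 2.85 CPM against 16.9, 25.4, 18.7 and 19.3 CPM (-2.05 ± 0.34, adjusted p = 0.0208, and 0.0454 without control 1320). Glipr2, a Golgi-associated protein, stood at 11.2, 4.62, 25.6 and 21.1 CPM against 54.2, 87.4, 99.0 and 89.9 CPM (-2.38 ± 0.51, adjusted p = 0.0485). Neither of these 2 genes overlapped between groups. Dio1 lost its call without adjacent 1349 or 1319 or control 1315 (adjusted p 0.0523 to 0.0608). Hr lost its call without adjacent 1349 or 1319 or control 1315 or 1320 (adjusted p 0.0542 to 0.0867). Optc lost its call without control 1315 (adjusted p = 0.0504). Glipr2 lost its call without adjacent 1349, 1323 or 1319 or control 1315 or 1320 (adjusted p 0.0590 to 0.0998). Glipr2 was not called under the block (adjusted p = 0.0676).

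Single calls came from 3 further lists, where over all genes 0.792% were called higher and 0.277% lower. Herpud1, of endoplasmic reticulum stress, was the 1 of 21 ATF4 and unfolded protein genes called (1.35 ± 0.27, adjusted p = 0.0368, and 0.0933 without control 1320). Madcam1, the addressin of gut vessels, was the 1 of 11 lymphoid and follicle genes (2.06 ± 0.44, adjusted p = 0.0485, and 0.0781 without control 1320). Hspa4l, a chaperone, was the 1 of 13 heat shock genes (-0.97 ± 0.17, adjusted p = 0.0238, and 0.0512 without control 1320). Under the block the first 2 of these lists held 0 calls by limma voom and the heat shock list 1. Paneth (0 of 14), goblet (0 of 17), enteroendocrine (0 of 18), tuft (0 of 13), fibroblast (0 of 18), neuronal and glial (0 of 14), and B and plasma cell genes (0 of 19) held no call in either direction (edgeR quasi-likelihood test). Their medians ran from -0.50 in tuft cells to 1.92 in B and plasma cells. Of the 189 called genes 45 belong to any of the 47 lists and 144 to none.

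**Figure D5:**
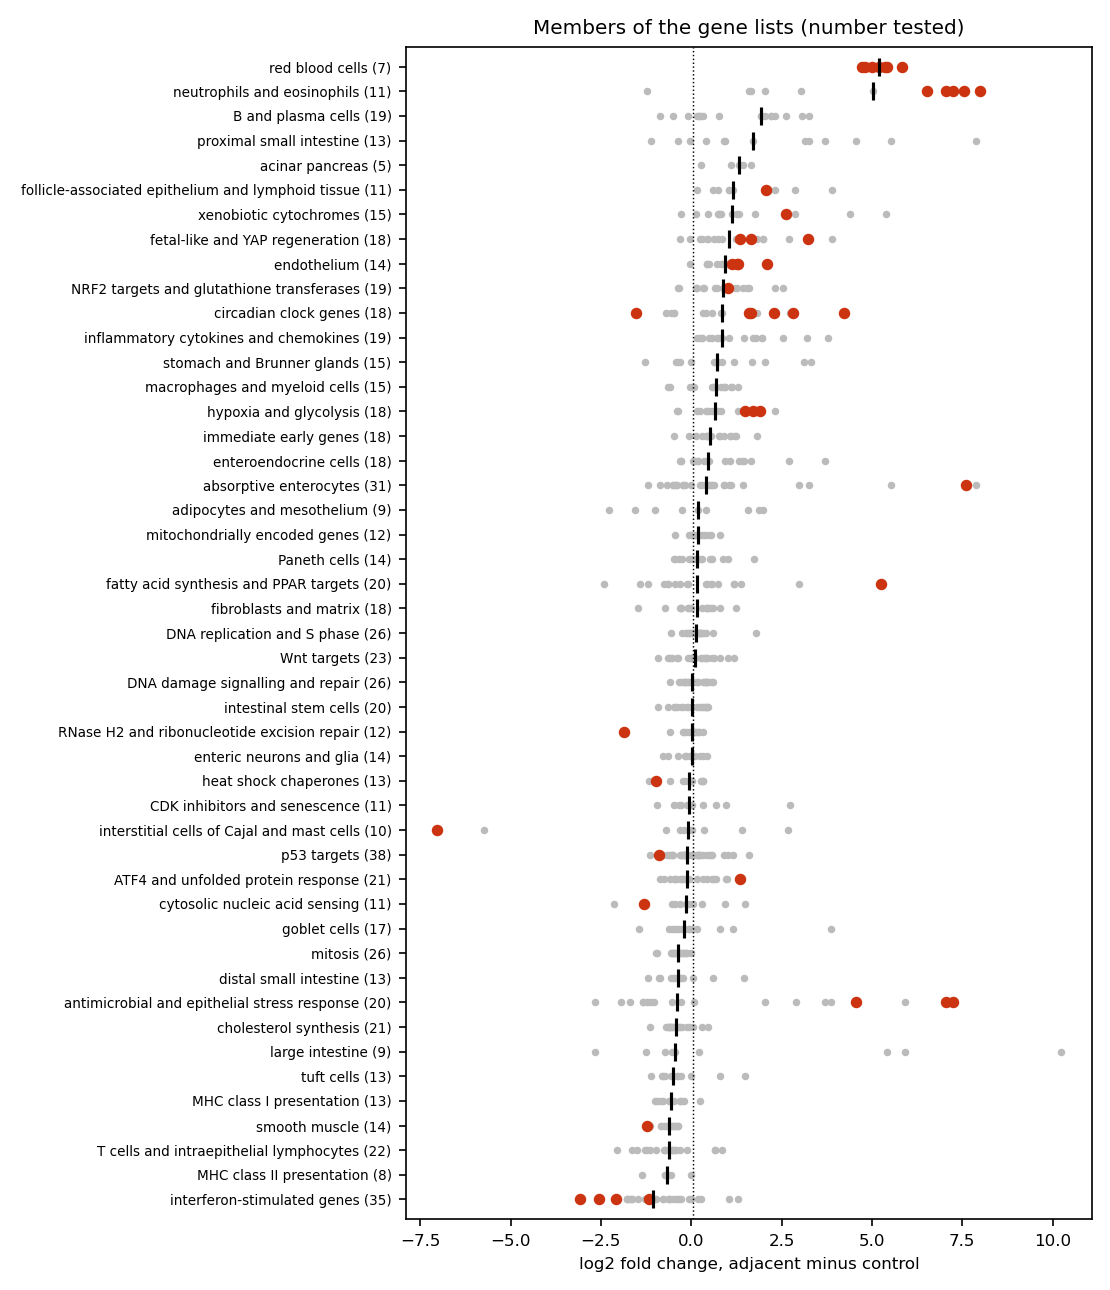
Log2 fold change, adjacent minus control, of every tested member of the 47 lists (number tested in brackets), red where the adjusted p is under 0.05 and grey otherwise, with a bar at the list median and a dotted line at the median of all genes. Red blood cell genes have the highest list median (5.19) and interferon-stimulated genes the lowest (-1.06).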

How the data were processed

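Whole small intestinal tissue was profiled by strand-specific sequencing of poly(A) RNA. The deposited files hold raw read counts per Ensembl gene. TopHat2 2.0.14, HTSeq, Trimmomatic 0.36 and 2 versions of cutadapt (1.5, 1.9) are named with the build GRCm38, per the submitters' processing notes. Their settings are not given in the sources used here. Symbols came from GENCODE M21, which matched 49326 of 49585 identifiers.

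Counts were fitted with the edgeR 4.0.16 quasi-likelihood test (R 4.3.3, filterByExpr with a minimum count of 10, TMM factors, robust) over 12 tissue libraries, including 4 tumors, which share the estimate of spread. The Benjamini-Hochberg adjustment ran over every tested gene, and a call means an adjusted p under 0.05. On simulated counts of 17491 genes for this comparison, 26% of genes changed by log2 1 and 89% of those changed by log2 2 were recovered, with 3 false calls. The changed genes were drawn from those with a mean log2 CPM of at least 3. Libraries were simulated without a link between those of 1 animal and without a shift in gut region. The recovery therefore does not cover lower genes or those features of the data. No replicates were identical, and each pair differed beyond sampling noise. Alternatives used DESeq2 1.42.0 and limma 3.58.1.

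Named genes are Rnaseh2b and Trp53. To these were added the 12 largest increases and 12 largest decreases among called protein-coding genes with separate groups whose mean log2 CPM reached 3, and the 4 members of smallest p in each of 20 lists (8 for p53 targets). Xist, Y-linked genes and models without a standard symbol were left out of the largest changes. A gene that the rule names among the fetal-like genes is not reported here. The members and lists were chosen with earlier results of these data known. Promoters came from RefSeq (GRCm38.p6). Intervals cover counting error only. Figures used matplotlib 3.10.9.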

Additional observations from a re-analysis of the deposited data

Results flagged for a closer look

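In 17 of 196 groups of 4 libraries (98 named genes, 2 groups each), 1 library lay far from the other 3 by Dixon's criterion, which chance meets in about 1 of 20 groups. The shallow control 1320 accounts for 8 of them. It held 0 CPM of Alas2 (others 0.258 to 0.344), Hba-a2 (0.902 to 1.38), Hbb-bs (4.12 to 7.39), Il1a (0.429 to 0.625) and Rnaseh1 (7.94 to 9.13). It was low for Erap1 at 74.9 CPM (128 to 137) and Esam at 2.68 CPM (7.77 to 9.31), and high for Rnaseh2b at 24.1 CPM (12.8 to 14.1).

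Adjacent 1323 stood above its group with 1871 CPM of Ndrg1 (others 229.9 to 325), 438 CPM of Srebf1 (105 to 117) and 22.5 CPM of Onecut2 (0.799 to 1.20). Adjacent 1319 held 103 CPM of Ifitm1 (30.1 to 35.4). Adjacent 1349 was low for Ifit1 at 2.65 CPM (7.96 to 9.43). Control 1316 held 1414 CPM of Acta2 (1006 to 1049). In 3 groups the library that stood apart was the 1 with any count, namely adjacent 1322 for Mcpt1 and Mcpt2 at 0.0307 CPM each and control 1315 for Ngp at 0.0767 CPM.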

How the results depend on the processing

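The DESeq2 Wald test called 645 genes higher and 257 lower (Trp53 -1.04, adjusted p = 0.0239), and the 8 libraries alone gave 314 and 127 (Trp53 -1.01, 0.0440). Without tumors and control 1320 the counts were 37 and 16 (Rnaseh2b -1.71, 0.0518). These were not the same calls as in the fit that left out control 1320 and kept tumors. Of the 189 called genes 33 were shared, against 51 in that fit, and 11 of the 53 named calls held, against 21. Red blood cell, clock and fetal-like genes then held 0 calls and neutrophil genes 4. With limma quality weights they were 801 and 809 (Trp53 -1.40, 0.00267). A gut region covariate gave 171 higher and 28 lower (Rnaseh2b -1.77, 0.0697) and ended 16 of the 53 named calls. Thinning to equal depth without control 1320 gave 46 and 16 (Rnaseh2b -1.71, 0.0644). The next 4 settings were chosen after seeing the data. The region covariate over the 8 libraries gave 211 higher and 61 lower (Trp53 -1.29, 0.0293). Females only gave 55 and 6 (Rnaseh2b -1.86, 0.0850). Leaving out control 1320 and adjacent 1323 gave 29 and 4 (Rnaseh2b -1.76, 0.0909). The 7 libraries without adjacent 1323 and tumors gave 425 and 167 (Trp53 -1.20, 0.0181). Leaving out 1 library at a time gave 0 to 161 higher and 0 to 62 lower, Rnaseh2b from -2.02 to -1.69 and Trp53 from -1.23 to -0.91. No value changed direction.

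Tumor and adjacent libraries of 1 mouse share its number. With the mouse as a replicate block in limma voom (random, correlation 0.13) 39 genes were higher and 31 lower, Rnaseh2b was -1.82 (adjusted p = 0.0239) and Trp53 -1.15 (0.0773). Of the 53 named calls 28 were lost under the block. Calls fell from 5 to 0 among neutrophil, 7 to 1 among red blood cell and 3 to 0 among antimicrobial genes. They fell from 4 to 1 among interferon-stimulated and 3 to 1 among fetal-like genes. With quality weights and no block, limma voom called 6, 6, 4, 13 and 7 in these lists. The block fit differs from the main fit in the test too, and limma voom with neither block nor weights was not run. The losses cannot be assigned to shared animals. Adjacent and control mice share no number, so a fixed block could not be fitted. The sex covariate was not run, since all controls read as female. The depth of control 1320 limits every low gene in that library.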
